A study of Mus musculus with 18 samples.

Results

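Hmga2 encodes a high mobility group protein that binds AT-rich DNA and alters chromatin structure. It was examined here as a target of miRNAs in cultured mouse keratinocytes. Its members were the chimeric reads whose target part has its midpoint within the RefSeq span of the gene on mm10, chr10:120361268-120476469, a length of 115202 bases. There were 2397 such reads of 1153545 in all pools. The gene lies on the minus strand by the RefSeq promoter table, so its 3′ end is the lower coordinate. The last 3000 bases of the span, chr10:120361268-120364267, were taken as the 3′ part, which is 2.6% of the gene length and held 338 reads, against 2059 reads in the rest. Exons were not used here, so neither stretch is classed as exon, intron or UTR.

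CLEAR-CLIP cross-links cells with UV light, precipitates Argonaute 2 and ligates each bound miRNA to the RNA beside it, so that 1 chimeric read names a miRNA and gives the position of its target. Set 1 comprised 3 libraries of miR-200 double knockout (DKO) keratinocytes and 6 control libraries, whose cells were K14-Cre only. Set 2 comprised 3 DKO libraries, 3 libraries of miR-200 inducible keratinocytes given 3 µg/ml doxycycline for 24 hours (induced), and 3 libraries of inducible keratinocytes without doxycycline (uninduced), which served as its control. K14-Cre is a recombinase driven by a keratin promoter that is active in basal keratinocytes. The uninduced cells carry the inducible construct and the set 1 control cells carry Cre, so the controls of the 2 sets are different cells. The labels do not say whether the libraries of a group came from separate animals or cultures.

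The libraries of each group are pooled in 1 file without library names, so each group is 1 sample and no test between groups was made. The pools held 48662 (set 1 DKO), 161692 (set 1 control), 210003 (set 2 DKO), 419117 (set 2 induced) and 314071 (set 2 uninduced) chimeric reads. A floor of 3 reads was 0.000716% to 0.00616% of a pool. Intervals are exact 95% intervals that cover counting error only, not the spread between libraries. A ratio of shares is called higher or lower where its interval excludes 1. The share of all genes called by the same rule is given beside it where it was taken. All 12 keratinocyte markers, among them Krt5, Krt14 and Trp63, had reads in every pool and held 0.406% to 0.673% of its reads, whereas the markers of other cells and of differentiation had few. Per pool, the 6 markers of differentiated keratinocytes had 2 or 3 reads, the 5 immune markers 0 or 1, and the 4 endothelial markers 3 to 9. The 6 fibroblast markers had 0 to 12 reads, all of Pdgfra, and the 4 melanocyte markers 2 to 24, mostly of Pmel. Col1a1, Dct and Cdh5 were at 0 in every pool.

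Small regulatory RNAs of this kind guide Argonaute to RNAs that pair with their seed, bases 2 to 8, and lower the stability or translation of those RNAs. The let-7 family is known for repressing Hmga2 through sites in the 3′ UTR of its mRNA, and Hmga2 is high in embryonic and proliferating cells where let-7 is low. The miR-200 family is known for keeping epithelial character. The sequences below are the mature miRNAs that the comparison of the 3′ part with the rest, the single-miRNA groups and the miR-200 comparison turn on, from RefSeq on GRCm38.p6, 5′ to 3′, with the seed in capitals. Of the 209 miRNA names read on Hmga2, 155 are in the RefSeq table and hold 86.3% of its reads.

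The 9 let-7 family names read on Hmga2 share 1 seed and differ outside it. They are shown because this seed held the most reads of the 3′ part, at a higher share than in the rest of the gene.
let-7a-5p: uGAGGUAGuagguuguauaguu
let-7b-5p: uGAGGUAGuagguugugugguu
let-7c-5p: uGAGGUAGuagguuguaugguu
let-7d-5p: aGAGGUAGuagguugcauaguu
let-7e-5p: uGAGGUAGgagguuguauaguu
let-7f-5p: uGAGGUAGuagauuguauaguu
let-7g-5p: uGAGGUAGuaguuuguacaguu
let-7i-5p: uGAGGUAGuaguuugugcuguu
miR-98-5p: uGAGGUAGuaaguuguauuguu

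A second seed is shared by miR-17-5p and its relatives, whose reads adjoin those of let-7 in the 3′ part.
miR-17-5p: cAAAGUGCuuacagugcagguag
miR-20a-5p: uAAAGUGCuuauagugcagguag
miR-93-5p: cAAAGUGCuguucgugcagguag

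The next 4 miRNAs each lead a group of overlapping targets: miR-423-3p and miR-532-3p in the 3′ part, miR-31-5p and miR-7093-5p in the rest of the gene.
miR-423-3p: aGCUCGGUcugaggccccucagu
miR-532-3p: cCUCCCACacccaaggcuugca
miR-31-5p: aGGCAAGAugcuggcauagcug
miR-7093-5p: cAGGAUGAcagaaggaaaaccu

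The miR-200 family carries a pair of seeds that differ by 1 base, of which 1 member each is shown, since this family was deleted or induced in the cells.
miR-200b-3p: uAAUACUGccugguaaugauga
miR-141-3p: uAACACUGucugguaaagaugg

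Hmga2 was among the most heavily ligated genes, ranking 4 of 14129 protein-coding genes with a read by the total over all pools. It held 89 reads in the set 1 DKO pool and 267 in the set 1 control pool. In set 2 it held 223 reads in the DKO pool and 998 in the induced pool, against 820 in the uninduced pool. Of these reads 2395 lay on the strand of the gene and 2 on the other strand. The target parts had a median of 41 bases (20 to 86). The same position, strand, miRNA and barcode occurred in another pool of the set for 106 of them (4.42%), against 5.24% to 17.4% of the reads of whole pools.

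As a share of its pool, Hmga2 made up 0.183% of set 1 DKO reads (0.147 to 0.225) and 0.165% of set 1 control reads (0.146 to 0.186). The ratio was 1.11 (0.861 to 1.41), so no difference was detectable at this depth; 7.91% of 2213 protein-coding genes were called higher in set 1 DKO and 9.44% lower. In set 2 it made up 0.106% of DKO reads (0.0927 to 0.121), 0.238% of induced reads (0.224 to 0.253) and 0.261% of uninduced reads (0.244 to 0.28). The set 2 DKO share was the lowest of the 5 pools and the uninduced share the highest. The set 2 DKO pool stood at 0.407 of the uninduced share (0.349 to 0.472), that is 2.46-fold lower. By the same rule 12.9% of 4573 protein-coding genes were lower in that comparison and 13.5% were higher. Among the 1046 genes with at least 100 reads in these pools the median ratio was 1, and 47 (4.49%) lay below Hmga2. The induced pool stood at 0.912 of the uninduced pool (0.831 to 1), an interval that reaches equality. Under 5 alternatives it excluded 1, with ratios of 0.897 to 0.909, so this call depends on what is counted and on the denominator. Both comparisons share the uninduced pool. In that comparison 4.51% of 5449 genes were called higher and 3.85% lower.

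Ordered by share, the pools ran uninduced, induced, set 1 DKO, set 1 control and set 2 DKO. With every read counted, uninduced and induced did not differ beyond the counting interval, and neither did set 1 DKO and set 1 control. Induced over set 1 DKO was 1.3 (1.05 to 1.64) and set 1 control over set 2 DKO was 1.56 (1.3 to 1.87). By the deposited read names each set ran on its own flow cell, so set and flow cell cannot be told apart in the comparisons across sets. The share of chimeric reads on a gene depends on how much of its RNA was present as well as on miRNA binding, and the level of Hmga2 RNA was not analysed here. In pooled cells, fewer cells with the RNA and less RNA per cell cannot be told apart.

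**Figure D1:**
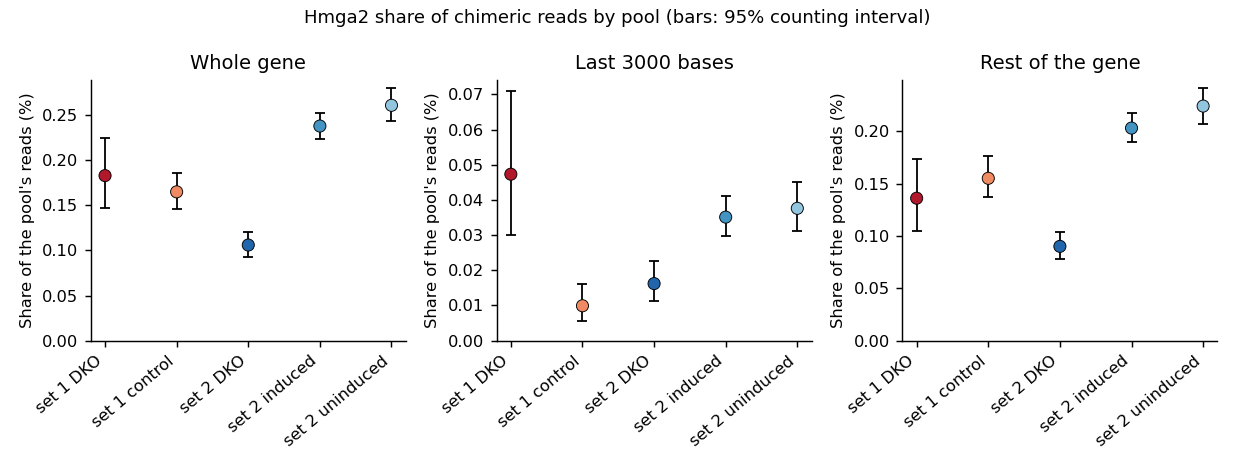
Share of each pool's chimeric reads (y axis, percent) on the whole Hmga2 gene, its last 3000 bases and the rest, for the 5 pools on the x axis; points are pool values and bars are exact 95% counting intervals. On the whole gene the set 2 DKO pool is lowest at 0.106%, and in the last 3000 bases the set 1 DKO pool stands at 0.0473% against 0.0099% in set 1 control.

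In set 1 the DKO share was above the control share in the 3′ part, and no difference was detectable in the rest. The 3′ part held 23 reads in set 1 DKO and 16 in set 1 control, which are 0.0473% (0.03 to 0.0709) and 0.0099% (0.00566 to 0.0161) of the pools, a ratio of 4.78 (2.42 to 9.67). The rest of the gene held 66 and 251 reads, a DKO to control ratio of 0.874 (0.656 to 1.15), where 4.01% of 1346 genes were called higher and 12% lower. Of 103 genes of at least 20000 bases with enough reads in their last 3000 bases, 24.3% were called higher in set 1 DKO and 5.83% lower, with a median ratio of 1.5; Hmga2 had the highest ratio of them. Of the 23 DKO reads, 1 was shared with the control pool, and all 23 were distinct. The ends of genes as a class differed between these pools too. Over 7948 genes of that length, the last 3000 bases held 17.7% of gene reads in set 1 DKO and 11.7% in set 1 control, against 18.7%, 22.3% and 22.2% in set 2 DKO, induced and uninduced. The part of this difference between pools in the Hmga2 ratio was not tested.

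In set 2 the ratios of the parts lay close together. The 3′ part held 34 reads in DKO and 147 in induced, against 118 in uninduced, and the rest held 189 and 851, against 702. The DKO to uninduced ratio was 0.431 (0.285 to 0.636) in the 3′ part and 0.403 (0.341 to 0.473) in the rest. In the last 3000 bases 21.7% of 746 genes were called lower in set 2 DKO and 9.52% higher, with a median ratio of 0.82. In the rest of the gene 9.69% of 2498 genes were called lower and 14.9% higher. The induced to uninduced ratio was 0.934 (0.728 to 1.2) in the 3′ part and 0.908 (0.821 to 1.01) in the rest, neither called. Here 5.37% of genes were called higher and 2.78% lower in the last 3000 bases, and 4.32% and 3.33% in the rest. As a share of the gene's own reads, the 3′ part held 25.8% in set 1 DKO (17.1 to 36.2) and 5.99% in set 1 control (3.46 to 9.55). It held 15.2% in set 2 DKO (10.8 to 20.6), 14.7% in induced (12.6 to 17.1) and 14.4% in uninduced (12.1 to 17). The 3 set 2 values overlap, and the 2 set 1 values do not.

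Over all pools the 3′ part held 14.1% of Hmga2 reads (12.7 to 15.6), and its reads per base were 6.14 times those of the rest. This share is that of a usual long gene, the median over 2820 genes being 14.6%. The kind of coverage differed between the parts. The reads of the 3′ part fell into 18 groups of overlapping targets, and groups of at least 5 reads held 96.2% of them. Those of the rest fell into 651 groups, 308 of them of 1 read, and groups of at least 5 reads held 54%. Reads in the rest were spread over the whole length of the gene in the set 2 pools.

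**Figure D2:**
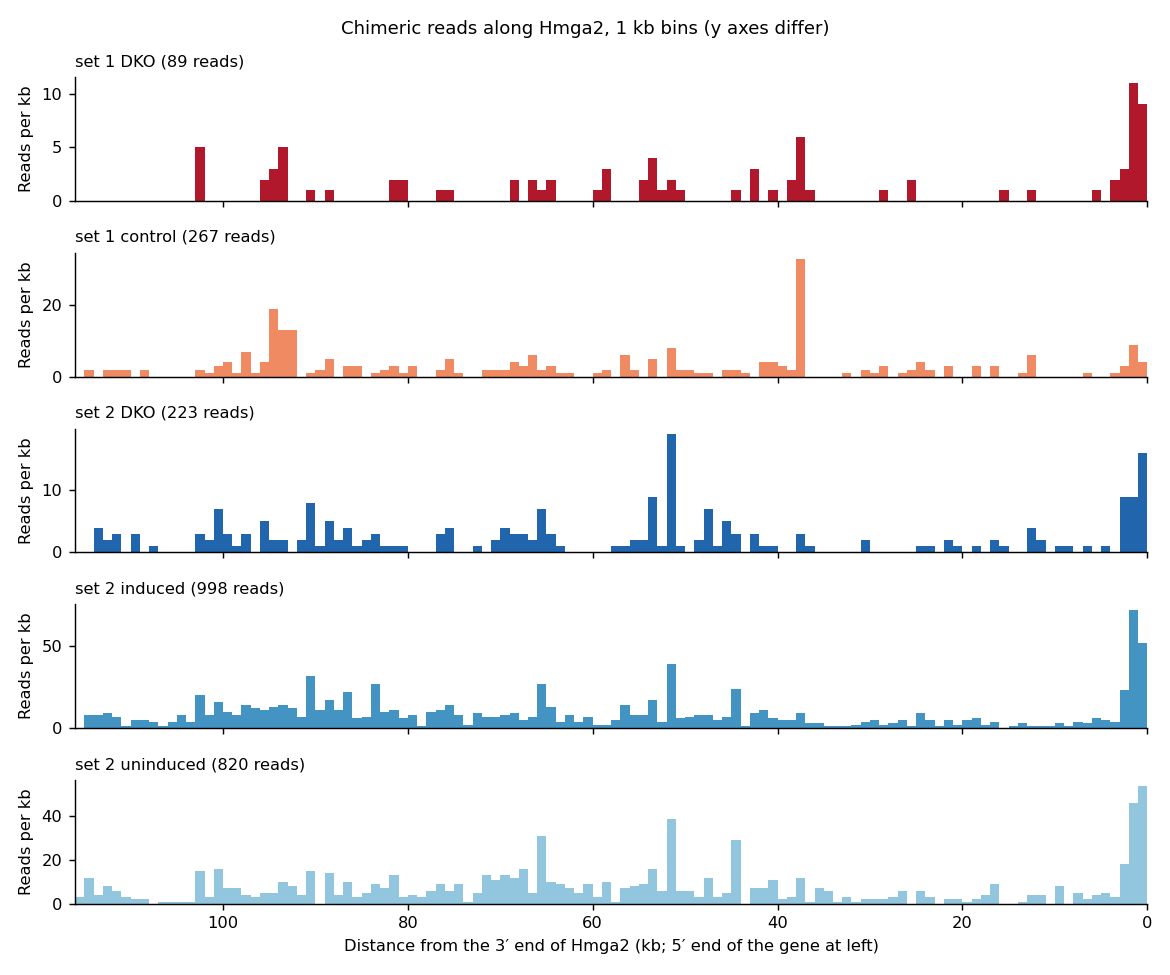
Chimeric reads per 1 kb (y axes, which differ between pools) against the distance from the 3′ end of Hmga2 in kb (x axis, 5′ end at left), 1 panel per pool. In set 1 DKO, induced and uninduced the tallest bin lies within the last 2000 bases. The tallest set 1 control bin is that of the miR-7093-5p group, which held 33 reads in that pool.

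Summed over the pools, let-7 was the leading seed family on the gene, with 204 reads, against 190 of miR-31-5p and 187 of miR-21a-5p. It did not lead in every pool. In uninduced, miR-31-5p had 86 reads against 63 of let-7, and in induced 84 against 85. In set 1 control miR-7093-5p had 33 against 25. In set 2 DKO miR-27a-3p with 21 and miR-27b-3p with 7 together exceeded the 23 of let-7. Within the gene let-7 was unevenly placed. It held 92 of 338 reads in the 3′ part (27.2%) and 112 of 2059 reads in the rest (5.44%), a ratio of 5 (3.76 to 6.65). In set 1, let-7 had 3 of 23 reads of the 3′ part in DKO (13%) and 6 of 16 in control (37.5%). In set 2 it had 10 of 34 in DKO (29.4%) and 45 of 147 in induced (30.6%), against 28 of 118 in uninduced (23.7%). In the rest of the gene let-7 held 7.58% and 7.57% in set 1 DKO and control, and 6.88%, 4.7% and 4.99% in set 2 DKO, induced and uninduced. The share was higher in the 3′ part in each of the 5 pools, except that with the last 2000 bases as the 3′ part the set 1 DKO ratio turned to 0.493. The ratio of 3′ part to rest was 1.72 (0.267 to 8.85) in set 1 DKO, where 3 reads leave it unresolved. It was 4.95 (1.62 to 12.9) in set 1 control, 4.28 (1.68 to 10.6) in set 2 DKO, 6.51 (4.16 to 10.2) in induced and 4.76 (2.79 to 8.05) in uninduced.

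Most long genes ran the other way. Among 491 genes with at least 50 reads in both parts, the let-7 share was called higher in the last 3000 bases for 9.57% and lower for 15.1%. The median ratio of the 483 with a finite one was 0.556, and 19 of them (3.93%) exceeded Hmga2. Set against all reads outside the gene, let-7 was 3.15 times as frequent in the Hmga2 3′ part (2.54 to 3.86). By that measure 6.92% of 607 genes were called higher and 47.4% lower, with a median of 0.296, and 21 genes (3.46%) exceeded Hmga2. By its number of let-7 reads in the last 3000 bases Hmga2 ranked 4 of 1713 genes with such a read. This ranking took only genes of known strand and at least 20000 bases.

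**Figure D3:**
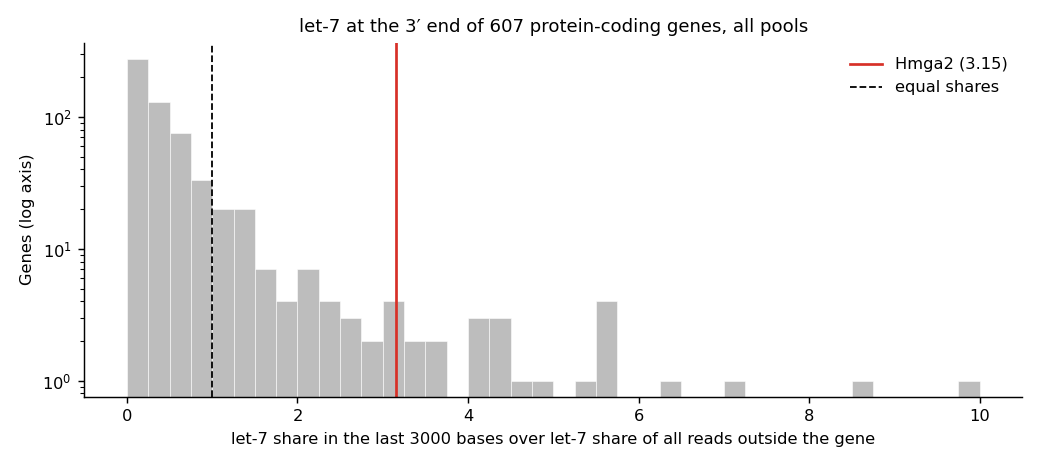
Number of protein-coding genes (y axis, log scale) by the ratio of the let-7 share in their last 3000 bases to the let-7 share of all reads outside the gene (x axis), all pools together, for 607 genes. Hmga2, the red line at 3.15, lies in the upper tail, and the median gene is at 0.296.

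Taken over the whole gene, let-7 was not enriched in all pools together. It held 8.51% of Hmga2 reads and 8.65% of reads elsewhere, a ratio of 0.984 (0.853 to 1.13). The same ratio was called higher for 4.92% of 4210 genes and lower for 36.7%, with a median of 0.543. By pool the share on Hmga2 was 8.99% in set 1 DKO and 9.36% in set 1 control, against 5.94% and 4.05% of the other reads of those pools. In set 2 it was 10.3% in DKO, 8.52% in induced and 7.68% in uninduced, against 9.71%, 9.35% and 9.8% elsewhere. The set 1 control ratio of 2.31 (1.49 to 3.41) was the only 1 of the 5 whose interval lay wholly above 1, where 3.89% of 514 genes were called higher and 5.84% lower. In the other pools 1.96% of genes were called higher and 15.7% lower in set 1 DKO, 4.08% and 19.7% in set 2 DKO, 4.5% and 33.1% in induced, and 4.38% and 33.8% in uninduced. As reads of the pool, let-7 on Hmga2 had a set 1 DKO to control ratio of 1.06 (0.415 to 2.43). In set 2 the DKO to uninduced ratio was 0.546 (0.323 to 0.893), while all let-7 reads had a ratio of 0.992 (0.974 to 1.01) between those pools. The share of genes called was not taken for these let-7 ratios between pools. Hmga2 reads of all miRNAs had a lower ratio, 0.407 (0.349 to 0.472), so the fall on Hmga2 was not particular to let-7.

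The let-7 reads of the 3′ part came from a few places. The main group, at chr10:120362491-120362576 and centred 1278 bases from the 3′ end, held 25 let-7 reads from all 5 pools (1 in set 1 DKO, 1 in set 1 control, 2 in set 2 DKO, 13 in induced and 8 in uninduced). let-7d-5p gave 14 of them. The next, at chr10:120362960-120363064 and 1738 bases from the end, held 23 let-7 reads (0 and 1 in set 1 DKO and control; 3, 12 and 7 in set 2 DKO, induced and uninduced), led by let-7b-5p with 7. Smaller groups of 8 reads at chr10:120363976-120364028 (let-7e-5p 4), 6 reads at chr10:120361380-120361447 (let-7g-5p 3) and 5 reads at chr10:120363489-120363554 (all let-7c-5p) followed. In the rest of the gene 1 let-7 group reached 5 reads, with 9 at chr10:120436106-120436187.

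The members of the family were not used evenly there. let-7d-5p gave 20 of the 92 reads of the 3′ part (21.7%) and 9.81% of all let-7 reads, a ratio of 2.22 (1.35 to 3.42). let-7g-5p gave 14 reads, a ratio of 2.33 (1.27 to 3.92). let-7a-5p, the member with the most reads in all files together, gave 11 reads (0.545, 0.272 to 0.975), and let-7e-5p gave 4 (0.262, 0.0714 to 0.671). let-7b-5p with 11 reads, let-7c-5p with 14, let-7f-5p with 8, let-7i-5p with 7 and miR-98-5p with 3 had intervals that included 1. let-7k, which also belongs to the family, had 0 reads on Hmga2. In the rest of the gene let-7i-5p was over-represented, with 13 of 112 let-7 reads (2.64, 1.4 to 4.51), while let-7e-5p gave 21 (1.13, 0.7 to 1.73).

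Other miRNAs also had groups in the 3′ part, some of which overlapped those of let-7. The miR-17 seed held 30 of its reads (8.88%) and 2.53% of the rest, a ratio of 3.51 (2.16 to 5.61). Its 2 main groups, 15 reads at chr10:120363064-120363135 and 11 at chr10:120362944-120363059, adjoin and overlap the let-7 group led by let-7b-5p. This seed belongs to the miR-17-92 cluster and its relatives, which are known for promoting proliferation. Together with other names these form the most read group on the gene, 107 reads at chr10:120362742-120363160, with 10 reads in set 1 DKO, 7 in set 1 control, 6 in set 2 DKO, 51 in induced and 33 in uninduced. let-7 and the miR-17 seed gave 26 reads each there, and the miR-15 and miR-16 seed gave 8. Names outside the RefSeq table could not be grouped by seed. Among them miR-467d-5p gave 6 reads there, miR-467a-5p 5 and miR-467c-5p 2.

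miR-423-3p gave 26 reads in the 3′ part and 6 in the rest, 24 of them in 1 group at chr10:120361720-120361844. Over the gene it held 1.34% of reads, against 0.243% elsewhere, a ratio of 5.48 (3.74 to 7.76). All 16 Hmga2 reads of miR-532-3p lay at chr10:120361508-120361580, with 2 in set 1 DKO, 0 in set 1 control, 0 in set 2 DKO, 6 in induced and 8 in uninduced. Elsewhere this miRNA was rare, at 0.0182% of reads. miR-21a-5p, an abundant miRNA linked to epidermal hyperplasia, gave 22 reads of the 3′ part (6.51%) and 165 of the rest (8.01%), a ratio of 0.812 (0.495 to 1.27). let-7, the miR-17 seed, miR-423-3p, miR-532-3p and miR-21a-5p together gave 186 of the 338 reads (55%).

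**Figure D4:**
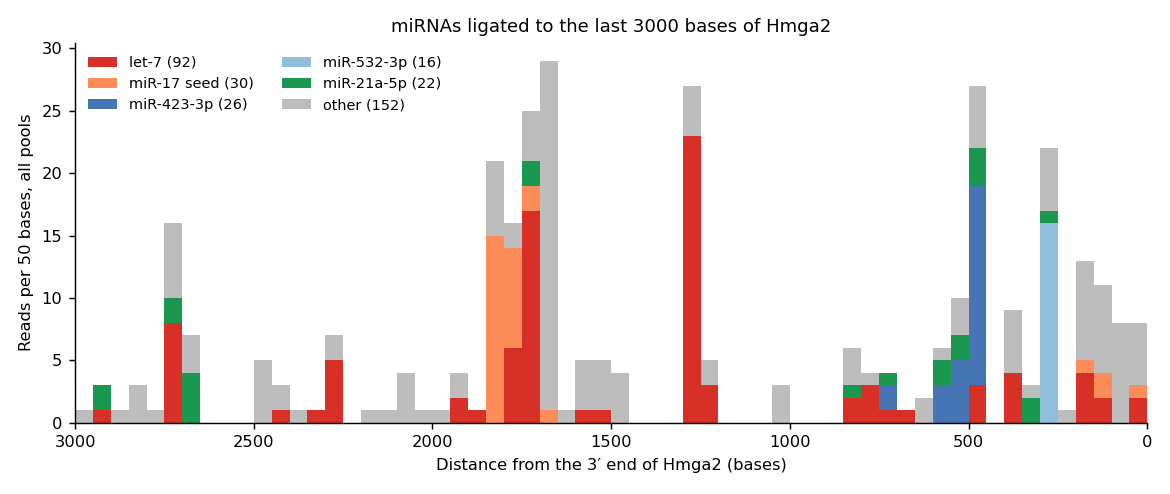
Chimeric reads per 50 bases (y axis), all pools together, over the last 3000 bases of Hmga2 by distance from the 3′ end (x axis, end at right); colours mark let-7 (92 reads), the miR-17 seed (30), miR-423-3p (26), miR-532-3p (16), miR-21a-5p (22) and all others (152). let-7 forms peaks near 1278 and 1738 bases, and miR-423-3p and miR-532-3p each form 1 peak within 600 bases of the end. The bin that starts 1650 bases from the end holds 28 reads of all others, more than the highest let-7 bin with 23.

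miR-31-5p, known for promoting keratinocyte proliferation, was placed the other way. It gave 187 reads in the rest of the gene (9.08%) and 3 in the 3′ part (0.888%), a ratio of 3′ part to rest of 0.0977 (0.02 to 0.29). Its largest groups were 16 reads at chr10:120405837-120405898, 15 at chr10:120426930-120426992, 13 at chr10:120444957-120445021 and 11 at chr10:120426724-120426789. It held 2.25% and 3.37% of Hmga2 reads in set 1 DKO and control, and 4.04%, 8.42% and 10.5% in set 2 DKO, induced and uninduced. Over the whole gene it fell below its share elsewhere (0.844, 0.728 to 0.973). miR-31-5p was not alone in this placement. The ratio of 3′ part to rest was also below 1 for miR-23a-3p (0.162, 0.0193 to 0.608) and the miR-27 seed (0.393, 0.166 to 0.799). The same held for the miR-125 seed (0.265, 0.0844 to 0.636) and for both miR-200 seeds (0.113 and 0.281). let-7, the miR-17 seed, miR-423-3p and miR-532-3p went the other way, whereas the interval of miR-21a-5p included 1. Ratios above 1 on fewer reads were those of the seed of miR-92a-3p and miR-25-3p (15.8, 5.3 to 56.7), miR-33-5p (6.09, 1.4 to 26.5) and the miR-26 seed (3.05, 1.13 to 7.54).

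The miR-200 family, the one altered in these cells, had 0 Hmga2 reads in set 1 DKO and 9 in set 1 control, and 0 in set 2 DKO, 77 in induced and 37 in uninduced. The floor of 3 reads is 3.37% of the set 1 DKO reads of the gene and 1.35% of the set 2 DKO reads, and the exact intervals reach 4.06% and 1.64%. The set 1 DKO limits are not below the set 1 control share of 3.37%, so no difference was detectable there. By pool the family made up 3.37% of Hmga2 reads in set 1 control, 7.72% in induced and 4.51% in uninduced, against 3.17%, 8.98% and 6.63% of the other reads of those pools. Its reads on Hmga2, over pool reads, were 1.56 times as frequent in induced as in uninduced (1.04 to 2.37). The share of genes called was not taken for this ratio, and the family's share of the other reads was also higher in induced. By member, miR-141-3p gave 47 reads, miR-200c-3p 32, miR-200b-3p 25, miR-429-3p 11 and miR-200a-3p 8. They were scattered: no group of either seed exceeded 5 reads, and 4 reads lay in the 3′ part (1.18%), against 119 in the rest (5.78%).

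**Figure D5:**
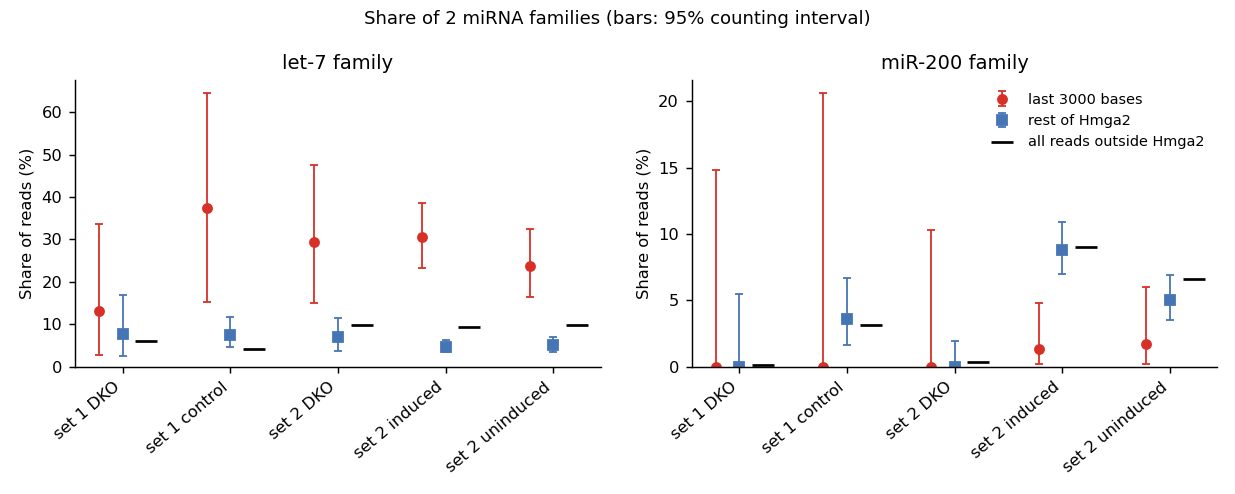
Share of reads (y axes, percent) that belong to the let-7 family (left) and the miR-200 family (right) in the last 3000 bases of Hmga2 (red), the rest of Hmga2 (blue) and all reads outside the gene (black dashes), for each pool on the x axis; bars are exact 95% counting intervals. let-7 in the last 3000 bases lies between 13% and 37.5%, above the rest in each pool (the set 1 DKO intervals overlap), and miR-200 is at 0 on Hmga2 in both DKO pools.

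Outside the 3′ part the most read group was at chr10:120412823-120412946, 87 reads of 35 miRNA names in all 5 pools, led by miR-19b-3p with 12. A group of 33 reads at chr10:120451789-120451967 was led by miR-21a-5p with 9 and miR-27a-3p with 8. Another of 37 reads at chr10:120463739-120463792 carried 18 names, led by miR-669o-3p with 9 and miR-467d-3p with 4. Within the 3′ part, the last 207 bases of the gene, chr10:120361268-120361474, held 40 reads of 28 names. By single name miR-92a-3p led with 5, and by family let-7 led with 8. Groups of 43 and 35 reads at chr10:120361711-120361864 and chr10:120361490-120361688 surround those of miR-423-3p and miR-532-3p.

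One group was nearly all of a single rare miRNA. miR-7093-5p gave 48 of 49 reads at chr10:120398390-120398460, and these are 48 of the 56 reads of that name in all files. Of the group's reads 6 were in set 1 DKO and 33 in set 1 control, and 1, 4 and 5 in set 2 DKO, induced and uninduced. They had 20 distinct combinations of position, strand and miRNA. Without this group the set 1 control share of the gene was 0.145%, an alternative added after the data were seen. Set 1 control also led at chr10:120455729-120455825, with 18 of the 29 reads, 25 of which were miR-3470a, and at chr10:120454207-120454324, with 12 of the 19, 18 of which were miR-3473d. Both names belong to 10 that are over-represented in set 1, where they hold 28.2% and 37.8% of all DKO and control reads, against 3.56%, 3.39% and 3.15% in set 2 DKO, induced and uninduced. On Hmga2 those 10 names held 5.62% and 14.2% in set 1 DKO and control, and 0%, 1.3% and 0.732% in set 2.

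Of 80 miRNA names with enough reads to compare, 7 (8.75%) were called over-represented on Hmga2 and 13 (16.2%) under-represented. Besides miR-7093-5p and miR-423-3p, the names of at least 20 reads with the largest ratios were miR-467d-3p (3.53, 2.26 to 5.27), miR-3473d (3.24, 2.03 to 4.91) and let-7i-5p (2.19, 1.34 to 3.39). Ranked by share of Hmga2 reads averaged over the pools, the first 10 names were miR-21a-5p, miR-31-5p, miR-27a-3p, miR-7093-5p, miR-125b-5p, miR-23a-3p, miR-3470a, let-7c-5p, miR-205-5p and miR-24-3p. Of these, miR-205-5p, a miRNA abundant in skin epithelium, was under-represented (0.639, 0.467 to 0.852). miR-27a-3p (1.03, 0.849 to 1.24), miR-23a-3p (0.906, 0.715 to 1.13) and miR-24-3p (0.969, 0.698 to 1.31) had intervals that included 1.

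Of 30 other genes commonly cited as let-7 targets, 20 had at least 50 reads. let-7 was called higher on 10 of these and lower on 3, against the 4.92% and 36.7% of all genes given above, and their median ratio was 1.39 against 0.543 over all genes. The lower calls of Ccnd2 and Cdk6, cell cycle genes, were lost when distinct combinations were counted once, with ratios of 0.888 and 0.872. On Myc, a growth-promoting transcription factor, let-7 held 261 of 440 reads (ratio 6.87, 6.06 to 7.76). On Thbs1, which encodes the matrix protein thrombospondin, it held 213 of 572 (4.31, 3.75 to 4.93), and on Dicer1, the enzyme that makes mature miRNAs, 145 of 471 (3.56, 3.01 to 4.19). Hmga2, at 0.984 over the whole gene, lay below these. In the last 3000 bases alone the let-7 share was 27.2% for Hmga2. Among the listed genes of at least 20000 bases with at least 50 reads there, it was above that for Tgfbr1, a TGF-beta receptor gene (47.7%), and the RNA-binding protein gene Igf2bp2 (36.2%). It was below that for Igf2bp3 (9.3%), Dicer1 (8.96%), Lin28b (8.77%), whose protein blocks let-7 maturation, and Igf1r, the receptor of insulin-like growth factor (3.05%). In set 2 DKO against uninduced, 5 of 21 listed genes were called higher and 1 lower, against 13.5% and 12.9% of all genes. Ccnd1, a cyclin of the G1 phase, was the lower one at 0.425 (0.276 to 0.639), and Myc was higher at 2.31 (1.75 to 3.06). In set 1 DKO against control, 0 of 14 were called, against 7.91% higher and 9.44% lower of all genes. In induced against uninduced 1 of 21 was called each way, against 4.51% and 3.85%.

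None of the other 8 high mobility group genes examined had 50 reads. Hmgn3 had 28, Hmga1, the closest relative of Hmga2, had 14, and Hmgn1 had 12. Cdkn2a and Cdkn2b, cell cycle inhibitor genes known to act downstream of Hmga2 in mouse neural stem cells, had 3 reads each, and Jund had 8. Within the span of Hmga2, the RefSeq table places the noncoding genes 1700006J14Rik, Gm40783 and Gm51785 on the plus strand, and the 190, 43 and 364 reads at their positions all lay on the minus strand, that of Hmga2. The 9230105E05Rik span held 27 reads, also all on the minus strand. The neighbouring genes Irak3, Tmbim4 and Llph had 0, 25 and 6 reads.

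By the balance of miRNAs ligated to them, the genes most like Hmga2 were Lrrc1 (Pearson r = 0.78), Lpp (0.76), Basp1 (0.73), Notch1 (0.71) and Sdc1 (0.71). The measure was taken over 47 miRNA names among 1175 genes with at least 200 reads, whose median r was 0.33. It is a description across miRNA names that share the same pooled libraries.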

How the data were processed

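CLEAR-CLIP reads of 18 libraries were analysed, in 5 pools whose names give set and group. Per the file headers, the deposited files hold another unit than counts: positions, 1 entry per chimeric read, giving where the target lies on mm10, its strand, the name of the miRNA and a barcode of 4 bases. The submitters' processing notes name cutadapt, Novoalign and bedtools, with no versions; roles and filters are not given in the sources used here. Starts count from 0 (checked on mature miRNA ends), so 1 was added. Gene spans, strands and sequences are RefSeq's (GRCm38.p6). Every read was counted. Shares have exact Clopper-Pearson 95% intervals and ratios conditional exact ones (Python 3.11.15, scipy 1.17.1, pandas 2.3.3); a call needs at least 20 reads, or 50 for let-7 per gene. The calling was tried on data simulated with counting error only. The intervals assume the same error, so this does not bear on the spread between libraries.

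Named were all let-7 and miR-200 names, the 10 with the highest mean share, the 5 of at least 20 reads with the largest ratio, the 8 most read groups of overlapping targets, fixed gene lists and the 5 most alike genes, by Pearson r of log2 shares with 0.1% added. Groups of single miRNAs, miR-532-3p, the miR-17 seed and the other seeds compared between the 3′ part and the rest were chosen after their values were seen. The members and lists were chosen with earlier results of these data known. Alternatives changed what is counted, the denominator and the extent of the 3′ part. The values of 1 listed gene are not reported here. Target site sequences, exons and UTRs were not analysed here.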

Additional observations from a re-analysis of the deposited data

Results flagged for a closer look

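The DKO to control ratio on Hmga2 lay on opposite sides of 1 in the sets, and the difference between sets was not tested, since each group is 1 pool. In the 3′ part, where both were called, it was 4.78 in set 1, from 23 DKO and 16 control reads, and 0.431 in set 2. On the whole gene it was 1.11 (0.861 to 1.41), not called, in set 1 and 0.407 in set 2. For let-7 reads on Hmga2 over pool reads it was 1.06 (0.415 to 2.43), not called, in set 1 and 0.546 in set 2, and for let-7 reads of the 3′ part 1.66 (0.269 to 7.78) in set 1 and 0.534 (0.231 to 1.13) in set 2. The control cells of the sets are different cells, and set and flow cell cannot be told apart.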

How the results depend on the processing

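The call, with its direction where called, was kept, or the value stayed within its counting interval, in 237 of 255 recomputed values (40 results, 11 alternatives). No called value reversed, but ratios not called could change direction. The set 2 DKO to uninduced ratio ran from 0.383 to 0.411, the set 1 ratio of the 3′ part from 4.14 to 5.59, and the let-7 ratio of 3′ part to rest, all pools, from 4.45 to 5. The same let-7 ratio in set 1 DKO, not called, ran from 0.493 (last 2000 bases) to 1.72. The induced to uninduced ratio came to exclude 1 at 0.897 with distinct combinations counted once (rest of the gene 0.899), 0.9 without reads shared between pools of a set (rest 0.892), 0.904 with a pool without miR-200 (rest 0.894), 0.909 without the 10 names over-represented in set 1, and 0.903 with barcodes within 1 base merged, an alternative added after seeing the data. Shares of the gene moved in induced and uninduced to 0.271% and 0.302% (distinct), 0.263% and 0.288% (without structured and mitochondrial targets) and 0.258% and 0.286% (barcodes merged). In set 1 DKO and control they moved to 0.24% and 0.228% without the 10 names, and in control to 0.145% without the miR-7093-5p group. With the last 2000 bases, the 3′ part held 12.4% of induced Hmga2 reads.

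Of single miRNAs, groups and listed genes, 142 of 162 values were kept. The values of single miRNAs are shares on the whole gene over shares elsewhere. By this measure miR-21a-5p, at 1.1 (0.95 to 1.27) with every read counted, came to exceed 1 (1.26 to 1.4). let-7d-5p, at 1.43 (0.955 to 2.05), did so too (1.69 to 2.11). let-7a-5p, at 0.638 (0.427 to 0.916), lost its call, as did Ccnd2 and Cdk6, listed genes with a lower let-7 share. The shares of let-7 members within the 3′ part were not recomputed.

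No paired analysis was possible because the files pool the libraries of a group without library names. Leaving out single libraries was not run for the same reason, so the spread between libraries is unknown. Depth limits set 1 DKO most, with 23 reads in the 3′ part.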
